A study of Mus musculus with 24 samples.

Results

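The genes described here are those of acetylcholine reception and breakdown in the mouse striatum: the muscarinic receptors *Chrm1*, *Chrm2*, *Chrm3* and *Chrm4*, the nicotinic receptor subunits *Chrna4*, *Chrna7* and *Chrnb2*, and acetylcholinesterase (*Ache*). They were chosen by symbol, and all 8 were found among the 24079 genes of the count table. RNA had been sequenced from 24 libraries, which fall into 8 groups of 3 by brain region, kind of RNA and genotype. The regions were the nucleus accumbens, abbreviated Acb, and the dorsal striatum, DS, the latter dissected from a more posterior slab of the brain than the former. The kinds of RNA were the whole lysates, and the heavy polysomal fractions, in which an mRNA carries at least 4 ribosomes. The genotypes were wild-type and rpS6P-/-, a constitutive knockin in which every phosphorylatable serine of ribosomal protein S6 is replaced by alanine in all cells. Knockin mice and wild-type littermates shared a mixed C57Bl/6/Sv129/ICR background, both sexes were used, tissue of several mice was pooled for each library, and the age of these mice was not given in the sources used here.

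Acetylcholine is released in the striatum mainly by a sparse population of large local interneurons, and acetylcholinesterase ends its action within milliseconds by splitting it in the synaptic cleft. Muscarinic receptors are G protein-coupled receptors. *Chrm1* and *Chrm3* encode receptors that act through Gq and phospholipase C, whereas *Chrm2* and *Chrm4* encode receptors that act through Gi/o and lower cyclic AMP. Nicotinic receptors are ligand-gated cation channels of 5 subunits: *Chrna4* and *Chrnb2* encode the subunits of the most common heteromeric receptor of the brain, and *Chrna7* the subunit of a homomeric one. In the striatum much of the nicotinic receptor protein lies on axons that arrive from elsewhere, whose mRNA stays in cell bodies outside the dissected tissue, so the counts below report mRNA of cells inside it.

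For the 4 genes that differed most clearly between regions, described below, the sequence before a RefSeq transcription start is shown for comparison. The 250 bases before each RefSeq transcription start are given 5′ to 3′ on the gene's own strand in GRCm38.p6, with each GGGCGG or CCGCCC (the GC box, the core of Sp1 binding sites, searched on both strands with overlapping matches joined) in capitals. They lie at chr5:137288004-137288253 on the plus strand for *Ache* and on the minus strand at chr3:89764633-89764882 for *Chrnb2*, chr13:10360804-10361053 for *Chrm3* and chr2:181039178-181039427 for *Chrna4*. These starts are not always the outer bounds of the genes. *Chrna4* spans 181022311 to 181043579, so its window lies inside the gene and is not that of its outermost start. The *Chrm3* window lies just inside its gene, which ends at 10361062. The *Ache* window runs just past the first base of its gene, 137288247.
Ache: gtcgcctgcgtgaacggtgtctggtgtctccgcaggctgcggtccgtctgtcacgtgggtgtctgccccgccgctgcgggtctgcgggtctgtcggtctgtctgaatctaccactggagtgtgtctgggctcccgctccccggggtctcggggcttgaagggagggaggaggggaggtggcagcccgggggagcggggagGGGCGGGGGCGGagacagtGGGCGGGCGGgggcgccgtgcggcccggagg
Chrnb2: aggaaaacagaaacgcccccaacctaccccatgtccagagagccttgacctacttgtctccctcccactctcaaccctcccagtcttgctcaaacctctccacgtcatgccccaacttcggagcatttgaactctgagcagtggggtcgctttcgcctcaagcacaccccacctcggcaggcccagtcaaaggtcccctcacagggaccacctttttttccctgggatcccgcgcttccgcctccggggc
Chrm3: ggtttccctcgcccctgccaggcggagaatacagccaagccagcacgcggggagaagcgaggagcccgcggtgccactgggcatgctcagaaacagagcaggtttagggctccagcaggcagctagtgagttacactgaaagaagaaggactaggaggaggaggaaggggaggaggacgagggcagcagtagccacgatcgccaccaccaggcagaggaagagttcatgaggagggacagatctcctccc
Chrna4: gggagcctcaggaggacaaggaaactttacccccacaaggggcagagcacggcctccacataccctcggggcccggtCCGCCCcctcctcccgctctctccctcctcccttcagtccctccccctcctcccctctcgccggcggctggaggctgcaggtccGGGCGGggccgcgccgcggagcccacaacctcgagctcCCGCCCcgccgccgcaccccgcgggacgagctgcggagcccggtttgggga
The *Ache* window held 4 matches to the GC box and the *Chrna4* window 3, while the *Chrnb2* and *Chrm3* windows held 0; 32.7% of the 32851 mouse promoter windows of this length held a match. The G and C content was 73.6% for *Ache*, 59.6% for *Chrnb2*, 61.2% for *Chrm3* and 74.4% for *Chrna4*, against a median of 52.4% over all windows. TATAAA or its complement, held by 12.4% of windows, was in 0 of these 4.

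Between 9280589 and 34703044 reads per library (median 16678553) were assigned to genes. The knockin replaces codons, so the counts cannot check the genotype labels; *Rps6* itself differed by -0.05 to 0.13 on the log2 scale between genotypes (adjusted p from 0.819 to 1, edgeR). Defining markers of striatal medium spiny neurons were abundant in every library, with a summed level of their 11 genes of 4280 to 4750 counts per 1000000 assigned reads (CPM) in Acb lysates and 3980 to 4380 CPM in DS lysates. The regions differed in markers of other cells. The 10 markers of cortical excitatory neurons summed to 206 to 360 CPM in Acb lysates and 994 to 1220 CPM in DS lysates, and the 8 markers of cholinergic neurons to 121 to 159 CPM in the Acb and 59.4 to 73.0 CPM in the DS. None of the genes on these 3 lists was at 0 in all libraries of a group.

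All 8 genes passed the filter on low counts in every comparison. Per kilobase of transcript, the scale on which genes can be set beside each other, the mean level over the 24 libraries was 23.2 CPM for *Chrm1*, 15.5 CPM for *Ache*, 12.8 CPM for *Chrnb2*, 8.15 CPM for *Chrna4*, 2.78 CPM for *Chrm3*, 2.57 CPM for *Chrna7* and 0.342 CPM for *Chrm2*. *Chrm4* cannot be placed in that order, because its transcript model holds only the coding sequence and its 39.8 CPM per kilobase is therefore overstated. The models of *Chrna4* and *Ache* are also mostly coding sequence (1923 of 2071 bases and 1842 of 2186). Their levels per kilobase may be overstated too, so the order is approximate. In CPM without regard to length, *Chrm1* ranged from 117 to 189 across libraries, *Chrm4* from 33.7 to 86.8, *Chrnb2* from 26.6 to 65.9, *Ache* from 13.1 to 62.4, *Chrna4* from 8.81 to 27.7, *Chrm3* from 5.01 to 21.9, *Chrna7* from 0.548 to 10.8 and *Chrm2* from 0.140 to 4.38. The mRNA of the Gq-coupled *Chrm1* was thus the most abundant receptor message placed in that order and also the steadiest one, its highest group mean being 1.35 times its lowest, whereas *Chrm2* rested on as few as 2 reads in a library and spanned 3.85 times between groups.

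**Figure D1:**
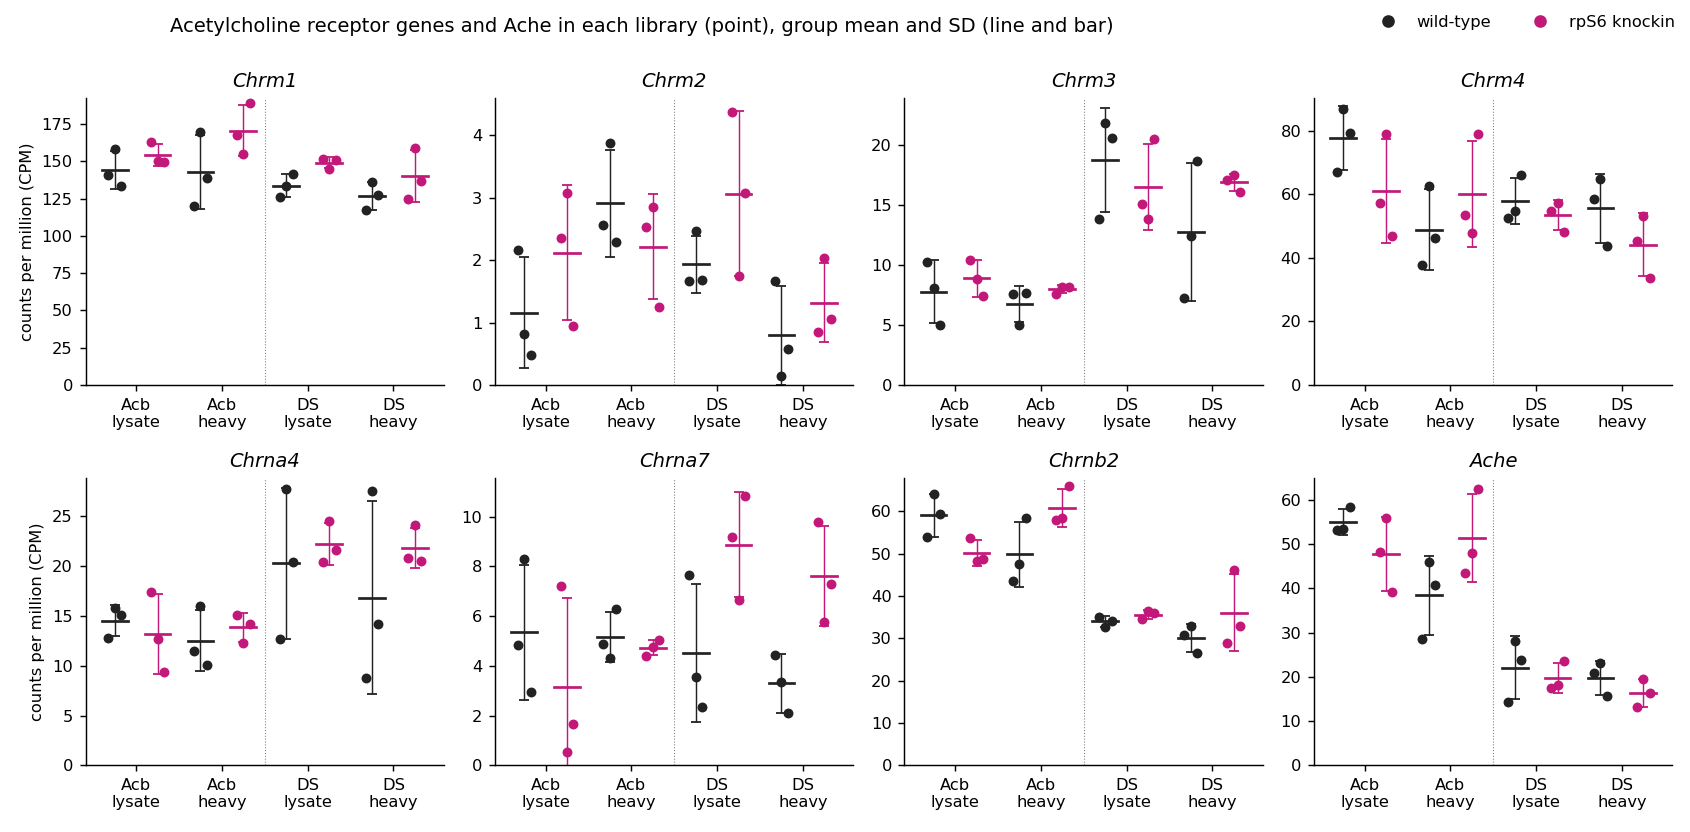
CPM in each of the 24 libraries (points), with the mean and SD of each group of 3 (line and bar), for the 4 muscarinic receptors, 3 nicotinic subunits and *Ache*; the dotted line parts Acb from DS. *Ache* and *Chrnb2* sit higher to the left of the line and *Chrm3* to the right, while *Chrm1* keeps about the same level throughout.

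Ordering the 8 group means showed how far they can be told apart. For *Chrm1*, *Chrm2*, *Chrm3*, *Chrm4*, *Chrna4* and *Chrna7*, neighbours in the order overlapped in 7 of 7 pairs. For *Chrnb2* and *Ache*, 6 of 7 did. The gap for *Chrnb2* lay within the Acb, between wild-type and rpS6P-/- lysates, whose nearest libraries were at 53.9 and 53.8 CPM. Its neighbouring Acb and DS groups overlapped. The gap for *Ache* fell exactly between the regions: the lowest Acb mean, 38.4 CPM in wild-type heavy fractions, stood above the highest DS mean, 22.1 CPM in wild-type lysates, with no overlap of libraries. For *Chrm3* and *Chrna4* the order was the opposite, with the 4 DS groups (12.8 to 18.8 CPM and 16.8 to 22.2 CPM) above the 4 Acb groups (6.77 to 8.92 CPM and 12.5 to 14.5 CPM), but the libraries of neighbouring groups overlapped.

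Whether cholinergic messages differ between the Acb and the DS was tested in lysates and in heavy fractions separately, with both genotypes in the fit. In whole lysates 5 of 8 genes were called, by edgeR's quasi-likelihood test at a Benjamini-Hochberg adjusted p under 0.05 over 16364 genes, where 19.3% of all genes were called. Of the 5, 3 were higher in the Acb and 2 lower, where 9.71% and 9.56% of all genes were. In heavy polysomal fractions 3 of 8 were called, where 19.8% of all genes were; 2 were higher and 1 lower, against 9.44% and 10.3% of all genes. The median log2 fold change of the 8 genes was -0.27 in lysates and 0.19 in heavy fractions, against 0.01 and 0.02 over all genes. With bulk tissue, fewer cells of a type and less RNA per cell cannot be told apart in any of these values.

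*Ache*, the enzyme that destroys acetylcholine, showed the steepest difference. In Acb lysates its level was 53.2, 53.4 and 58.4 CPM in wild-type and 48.1, 56 and 39.1 CPM in rpS6P-/- mice. In DS lysates it was 14.3, 28.2 and 23.8 CPM in wild-type and 17.4, 18.2 and 23.6 CPM in rpS6P-/- mice. Every Acb lysate was above every DS lysate. Regions without overlap, in either direction, were found for 10.0% of all genes. The level of *Ache* was 2.45 times higher in the Acb (log2 fold change 1.30 ± 0.15 SE, adjusted p = 2.63e-10, edgeR). In heavy fractions the same held: the 6 Acb libraries spanned 28.6 to 62.4 CPM (median 44.6) and the 6 DS libraries 13.1 to 23.1 CPM (median 17.9), again without overlap, which was the case for 8.42% of all genes. The difference there was 2.49 times (log2 fold change 1.31 ± 0.17 SE, adjusted p = 9.1e-06, edgeR). Within wild-type libraries alone it was 1.31 in lysates and 1.01 in heavy fractions on the log2 scale, and within rpS6P-/- libraries alone 1.26 and 1.64, each called.

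*Chrnb2*, the beta subunit of heteromeric nicotinic receptors, was also higher in the Acb. Its 6 Acb lysates spanned 48.3 to 64.0 CPM (median 53.9) and its 6 DS lysates only 32.7 to 36.4 CPM (median 34.8), without overlap (log2 fold change 0.65 ± 0.12 SE, adjusted p = 2.48e-05, edgeR). In heavy fractions the range was 43.5 to 65.9 CPM in the Acb and 26.6 to 46.2 CPM in the DS, where the rpS6P-/- DS library of replicate 2 reached into the Acb range (0.75 ± 0.14 SE, adjusted p = 3.82e-04, edgeR). The gene overlaps *Adar* on the opposite strand, and the counting used strand.

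*Chrna4*, the alpha subunit that pairs with it, went the other way. Its lysate level was 12.8, 15.8 and 15 CPM in wild-type Acb and 17.4, 12.7 and 9.38 CPM in rpS6P-/- Acb, against 12.6, 27.7 and 20.4 CPM in wild-type DS and 20.4, 24.5 and 21.6 CPM in rpS6P-/- DS. All DS lysates but that of wild-type replicate 1 were above all Acb lysates, and the log2 fold change was -0.61 ± 0.20 SE (adjusted p = 0.0183, edgeR). In heavy fractions the DS libraries spanned 8.81 to 27.5 CPM, the same wild-type replicate 1 again being the lowest, and the Acb libraries 10.1 to 16.0 CPM (-0.53 ± 0.21 SE, adjusted p = 0.0795, edgeR). Without that heavy library the difference was -0.67 and was called (adjusted p = 0.0141), whereas in lysates the call was lost without wild-type DS replicate 2 (-0.51, adjusted p = 0.0897) or rpS6P-/- Acb replicate 3 (-0.51, adjusted p = 0.0557). As a description chosen after these values were seen, the ratio of *Chrnb2* to *Chrna4* reads per kilobase within a library, which needs no scaling between libraries, had a median of 2.38 (range 1.84 to 3.09) in Acb lysates and of 0.992 (0.702 to 1.66) in DS lysates. In heavy fractions it was 2.53 (1.77 to 3.44) in the Acb and 1.04 (0.714 to 2.07) in the DS. The transcript lengths used set the size of this ratio and scale both regions alike.

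*Chrm3*, a Gq-coupled muscarinic receptor, was the member that fell most in the Acb. Its level was 10.3, 8.14 and 5.01 CPM in wild-type and 10.5, 8.87 and 7.40 CPM in rpS6P-/- Acb lysates. In DS lysates it was 13.9, 21.9 and 20.6 CPM in wild-type and 15.1, 13.9 and 20.6 CPM in rpS6P-/- mice, so that every DS lysate exceeded every Acb lysate. The log2 fold change was -1.07 ± 0.22 SE in lysates (adjusted p = 1.88e-04, edgeR) and -0.99 ± 0.21 SE in heavy fractions (adjusted p = 0.00144, edgeR), where wild-type DS replicate 1 at 7.24 CPM was as low as the Acb libraries (5.02 to 8.22 CPM). The other Gq-coupled receptor, *Chrm1*, did not follow. Its 134 to 163 CPM in Acb lysates against 126 to 151 CPM in DS lysates gave 0.08 ± 0.08 SE (adjusted p = 0.595, edgeR). The 95% interval, a normal approximation from the SE, was -0.08 to 0.24. Within a library, the ratio of *Chrm1* to *Chrm3* reads per kilobase had a median of 12.6 (range 9.48 to 18.4) in Acb lysates and 5.69 (4.23 to 7.22) in DS lysates. In heavy fractions it was 14.1 (10.9 to 23.4) in the Acb and 6.06 (4.69 to 11.2) in the DS, and the ranges overlapped. This description was again chosen after the values were seen.

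The Gi/o-coupled receptors gave less certain values. *Chrm4*, found on medium spiny neurons of the direct pathway, spanned 46.9 to 86.8 CPM in Acb lysates and 48.2 to 66.1 CPM in DS lysates (0.31 ± 0.11 SE, adjusted p = 0.0492, edgeR), and the overlap was wide. The call was kept in 8 of 20 alternative fits and lost in the others, and in heavy fractions *Chrm4* was not called (0.14 ± 0.17 SE, adjusted p = 0.636, edgeR). *Chrm2*, a receptor of cholinergic interneurons themselves, had 2 to 109 reads in a library. Its log2 fold change was -0.61 ± 0.61 SE in lysates and 1.31 ± 0.53 SE in heavy fractions (adjusted p = 0.574 and 0.0884, edgeR), and the difference between these, 1.96 ± 0.79 SE, had an adjusted p of 0.214 (edgeR). *Chrna7*, with 5 to 189 reads in a library, was called in neither kind of RNA (-0.61 ± 0.42 SE and -0.01 ± 0.30 SE, adjusted p = 0.371 and 0.983, edgeR), and in wild-type libraries alone its value was above 0 in both (0.23 and 0.72).

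**Figure D2:**
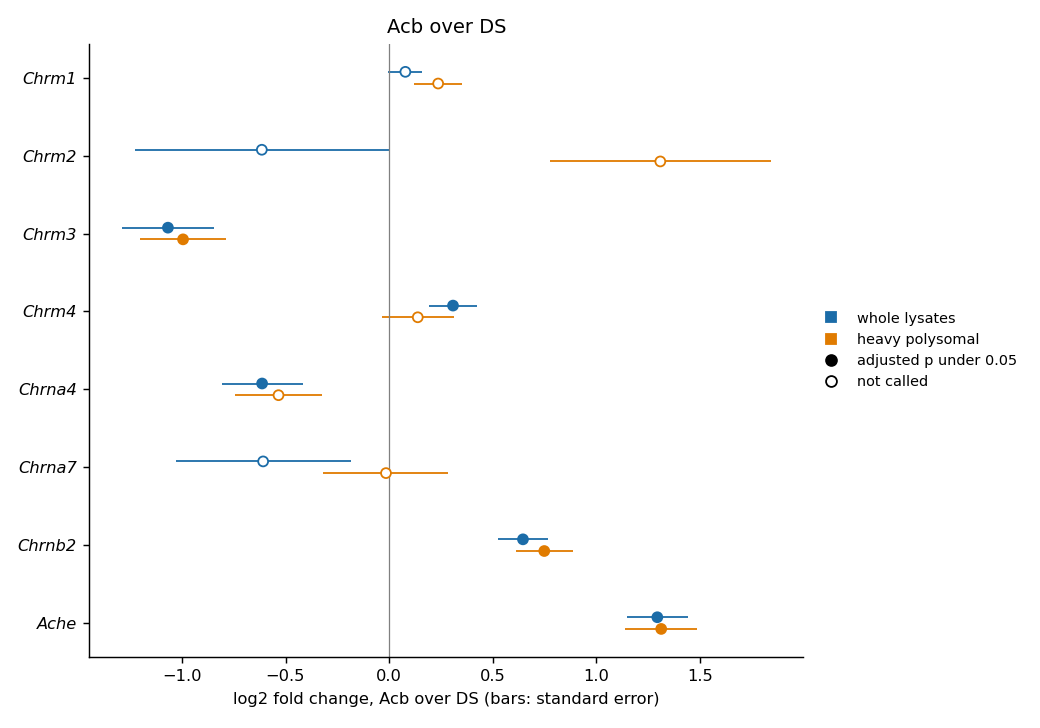
Log2 fold change of Acb over DS with its standard error for each gene, in whole lysates (blue) and heavy polysomal fractions (orange); filled points have an adjusted p under 0.05. *Ache* and *Chrnb2* lie right of 0 and *Chrm3* left of 0 in both kinds of RNA, while *Chrm2* has wide bars on opposite sides.

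Markers of other cells moved with these differences. Of all genes, 9.71% were called higher and 9.56% lower in Acb lysates, and 9.44% and 10.3% in Acb heavy fractions. The cholinergic neuron list was higher in the Acb, with 5 of its 8 genes called higher in lysates and 5 in heavy fractions, as *Ache* and *Chrnb2* were, and the cortical excitatory list was lower, with 8 of its 10 genes called lower in each kind of RNA, as *Chrm3* was in both and *Chrna4* in lysates. In heavy fractions the cholinergic list summed to 121 to 172 CPM in the Acb and 56.2 to 71.5 CPM in the DS, and the cortical list to 230 to 394 CPM and 1090 to 1410 CPM. The microglial list of 8 genes also summed higher in Acb lysates, at 230 to 311 CPM against 140 to 175 CPM, as did the astrocytic list (2230 to 3110 CPM against 1700 to 2140 CPM) and the choroid plexus list (151 to 184 CPM against 103 to 141 CPM, and 137 to 189 CPM against 91.2 to 128 CPM in heavy fractions). The part of these cell types in the differences of the receptors was not tested. The dissections lay at different depths from front to back, and region and slab cannot be told apart.

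The other genes of the cholinergic system show the setting of these members. Over all genes, 9.71% were called higher in the Acb in lysates and 9.44% in heavy fractions. Of the 4 genes of acetylcholine synthesis and transport, 2 were called higher in the Acb in lysates, 2 in heavy fractions, and 0 lower in either. *Slc5a7*, the high-affinity choline transporter, was higher in both (log2 fold changes 0.99 and 1.12), the choline transporter-like *Slc44a1* in lysates (0.40) and the vesicular acetylcholine transporter *Slc18a3* in heavy fractions (1.02). *Chat*, which synthesizes acetylcholine, was called in neither (0.52 and 0.74, adjusted p = 0.102 and 0.0785, edgeR). The ratio of *Ache* to *Slc5a7* reads within a library had a median of 1.36 (range 1.12 to 1.86) in Acb lysates and 1.16 (0.795 to 1.68) in DS lysates, and the ranges overlapped. Of butyrylcholinesterase and the cholinesterase anchors *Colq* and *Prima1*, 0 of 3 were called in either kind of RNA.

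Of the 13 other nicotinic subunits in the table, 9 had enough reads to be tested in lysates and 10 in heavy fractions, and their levels summed to no more than 9.64 CPM in any library. *Chrna2* was called higher in Acb lysates, with group means of 1.84 and 2.44 CPM against 0.158 and 0.160 CPM in the DS. *Chrna5*, an accessory subunit, was called lower in Acb heavy fractions, with group means of 0.0121 and 0.157 CPM against 1.62 and 2.24 CPM. *Chrm5*, the only muscarinic receptor outside the chosen set, was at 0.595 to 2.83 CPM in Acb heavy fractions and at 0 to 0.425 CPM in those of the DS, and was called there.

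Proteins that assemble or tune nicotinic receptors differed on both sides. Among 7 of them, 4 were called higher and 2 lower in the Acb in lysates, and as many in heavy fractions. Higher were the chaperones *Ric3* (0.34 and 0.64) and *Tmem35* (0.76 in both) and the prototoxin genes *Ly6h* (1.13 and 1.03) and *Lypd1* (1.10 and 0.70). Lower were the prototoxin *Lynx1*, a brake on nicotinic receptors (-0.73 and -0.99), and *Lypd6b* (-1.15 and -1.09). Downstream of muscarinic receptors, 1 of 21 signalling genes was called higher and 13 lower in Acb lysates, and 3 higher and 7 lower in heavy fractions. Beside both lists, 9.71% of all genes were called higher and 9.56% lower in lysates, and 9.44% and 10.3% in heavy fractions. Lower in both kinds of RNA were the potassium channel subunit *Kcnj6* (-2.03 in lysates), the regulator of G protein signalling *Rgs4* (-1.34), the phospholipase *Plcb1* (-0.94), the kinase *Prkcb* (-0.65), the G protein subunits *Gnao1* (-0.54) and *Gnb1* (-0.40) and the calcium release channel *Itpr1* (-0.53). Called lower in lysates and not in heavy fractions were *Kcnj3* (-1.35), *Kcnq3* (-0.84), *Plcb4* (-0.71), *Cacna1a* (-0.44), *Gnaq* (-0.30) and *Prkca* (-0.26). The Gi subunit gene *Gnai2* was higher in both (0.68 and 0.47), and *Adcy5* (0.39) and *Gnai1* (0.35) were called higher in heavy fractions. Most of these signalling genes are used by many receptors, and which cells their differences came from was not tested.

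**Figure D3:**
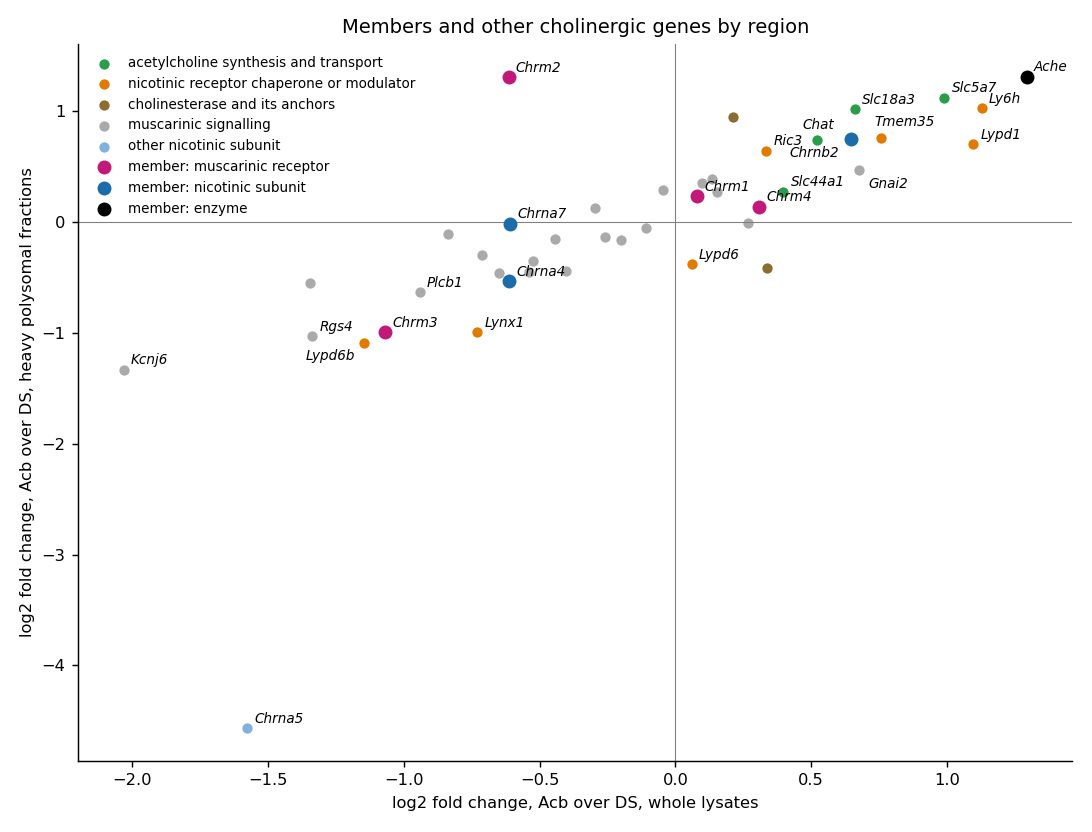
Log2 fold change of Acb over DS in whole lysates (x axis) against heavy polysomal fractions (y axis) for 43 cholinergic genes with a mean level of at least 1 CPM; large points are the 8 members and small ones the other lists. Most genes lie near the diagonal, with *Ache*, *Slc5a7* and *Ly6h* at the upper right, *Kcnj6*, *Rgs4* and *Chrm3* at the lower left, and *Chrm2* and *Chrna5* away from it.

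The level of each message in heavy fractions was compared next with that in lysates. Since each library is scaled to its own total, this ratio says how a message was loaded relative to other messages, not which share of it was on polysomes. In the Acb 0 of 8 genes were called, where 29.8% of all genes were, and in the DS 0 of 8, where 37.0% were. By unadjusted p under 0.05, 1 of 8 passed in each region, against 38.3% and 44.0% of all genes. The log2 fold changes of the 8 lay between -0.35 (*Chrm4*) and 0.67 (*Chrm2*) in the Acb and between -1.27 (*Chrm2*) and -0.09 (*Chrnb2*) in the DS, where 8 of 8 were below 0, although *Chrm1* turned to 0.33 and was called once a trend with transcript length was removed. Their medians were -0.03 and -0.21, against 0.04 and 0.03 over all genes. For the 4 genes with the most reads, 95% intervals were taken by a normal approximation from the SE, which is somewhat narrow with few libraries. In the Acb and then the DS they were -0.16 to 0.28 and -0.29 to 0.10 for *Chrm1*, and -0.66 to -0.03 and -0.43 to 0.07 for *Chrm4*. For *Chrnb2* they were -0.24 to 0.27 and -0.37 to 0.18, and for *Ache* -0.51 to 0.08 and -0.58 to 0.12. With the length trend removed from each library, *Chrm1* was 0.37 in the Acb, also called and, as in the DS, outside its interval here. *Chrm4* was then called lower in both regions (-0.55 in each). These *Chrm4* values rest on the length of its coding-only transcript model and are therefore uncertain. Whether the ratio differed between regions was tested by the interaction, which called 0 of 8 genes, where 1.09% of all genes were called, and 1 of 8 (*Chrm2*) at an unadjusted p under 0.05, where 15.5% were.

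Some other cholinergic genes were called, as were 29.8% of all genes in the Acb and 37.0% in the DS. Butyrylcholinesterase and the anchors *Colq* and *Prima1* were called in neither region. *Chat* was lower in heavy fractions than in lysates in both regions (-1.29 and -1.52), as was *Slc5a7* (-0.47 and -0.61), while *Slc44a1* was higher (0.50 and 0.62). *Tmem35* (0.82 in both) and *Ly6h* (0.52 and 0.62) were higher in heavy fractions in both regions, and in the Acb *Ric3* was called higher (0.45) and *Lypd6* lower (-0.70). In the DS the subunit *Chrnb4* was called higher, at group means of 0.256 and 1.54 CPM in heavy fractions against 0.0228 and 0.0394 CPM in lysates. Of the 21 muscarinic signalling genes, 7 were called higher and 6 lower in the Acb, and 4 higher and 8 lower in the DS; Higher in both regions were *Gnai1* (0.68 and 0.42), *Gna11* (0.49 and 0.45) and *Gnai2* (0.32 and 0.52). Lower in both were *Plcb1* (-0.82 and -1.13), *Plcb4* (-0.70 and -1.12), *Itpr1* (-0.70 and -0.89), *Cacna1b* (-0.76 and -0.48), *Prkca* (-0.64 and -0.77) and *Cacna1a* (-0.56 and -0.85). Called in the Acb and not in the DS were *Kcnj3* (0.64), *Rgs4* (0.54), *Gnai3* (0.46) and *Gnaq* (0.34), and in the DS and not in the Acb *Gnb1* (0.27), *Adcy5* (-0.39) and *Prkcb* (-0.33); these differences between regions were not called by the interaction.

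**Figure D4:**
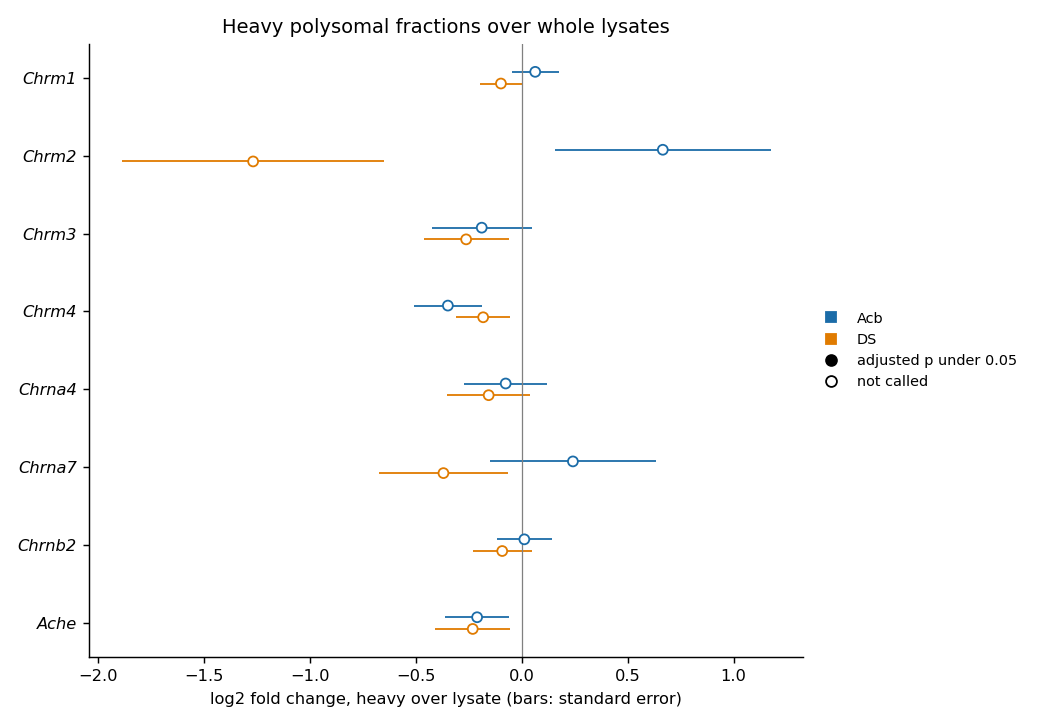
Log2 fold change of heavy polysomal fractions over whole lysates with its standard error for each gene, in the Acb (blue) and the DS (orange). All points are open, since none of the 8 genes was called in either region, and all 8 DS points lie left of 0, *Chrm1* moving to 0.33 there with the transcript length trend removed.

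Split by genotype, the Acb values lay apart, though the test of their difference, which follows, called neither gene. In wild-type libraries alone *Chrm4* was lower in heavy fractions (-0.67, adjusted p = 0.00574, edgeR) and so was *Ache* (-0.52, adjusted p = 0.0335), and in rpS6P-/- libraries alone the values were -0.04 and 0.09 (adjusted p = 0.94 and 0.821). *Chrm4* was at 67.0, 86.8 and 79.3 CPM in wild-type Acb lysates and at 37.9, 62.7 and 46.1 CPM in the heavy fractions of the same replicate numbers. In rpS6P-/- Acb it was at 57.2, 79.0 and 46.9 CPM in lysates and at 53.4, 47.8 and 79.1 CPM in heavy fractions, so that replicate 2 fell and replicate 3 rose. *Ache* was at 28.6, 45.8 and 40.8 CPM in wild-type Acb heavy fractions and at 43.4, 47.9 and 62.4 CPM in rpS6P-/- ones, the latter highest again in replicate 3.

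The difference itself is the effect of genotype on translational efficiency, the test of heavy fractions over lysates between genotypes, for which 0 of 8 members were called in the Acb, as was 0% of all 16687 genes, and 0 of 8 in the DS. By unadjusted p under 0.05, 3 of 8 passed in the Acb, where 11.9% of all genes did: *Chrm4* (0.65 ± 0.29 SE, adjusted p = 0.368), *Ache* (0.62 ± 0.27 SE, adjusted p = 0.364) and *Chrnb2* (0.52 ± 0.24 SE, adjusted p = 0.393, edgeR). Leaving out the lysate and heavy library of 1 replicate number at a time gave 0.24 to 1.02 for *Chrm4* and 0.33 to 0.80 for *Ache*. The lowest of each came without rpS6P-/- replicate 3 and the highest without rpS6P-/- replicate 2. For *Chrnb2* the values were 0.42 to 0.64. Across the 8 genes 7 were above 0 in the Acb, with a median of 0.40 against 0.01 over all genes. In the DS 0 of 8 had an unadjusted p under 0.05, where 4.90% of all genes did, and the median was 0.18. With the lysate, as matched by replicate number, as a block, 106 genes were called in the Acb and 6 in the DS, of which 0 were members.

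Genotype was also compared within each kind of RNA. In Acb heavy fractions 0 of 8 members were called, as was 0% of all genes, and 0 of 8 also passed at an unadjusted p under 0.05, where 21.7% of all genes did. The 0% belongs to edgeR with this filter: over all genes DESeq2's Wald test called 1090, and edgeR with no filter 549, in both cases with 0 of the 8 members. *Ache* came nearest (0.42 ± 0.20 SE, unadjusted p = 0.0501, adjusted p = 0.231, edgeR), with values of 0.25 to 0.57 when 1 library was left out. In Acb lysates 0 of 8 were called, where 0.00650% of all genes were; *Chrm4* alone had an unadjusted p under 0.05, at 0.049, as did 2.96% of all genes (-0.35 ± 0.17 SE, adjusted p = 1, edgeR), with overlapping libraries and values of -0.57 without rpS6P-/- replicate 2 to -0.20 without rpS6P-/- replicate 3. The 3 wild-type Acb lysates (53.9, 64.0 and 59.3 CPM) lay above the 3 rpS6P-/- ones (53.8, 48.3 and 48.7 CPM) for *Chrnb2*, as groups did not overlap for 8.33% of all genes, but the nearest libraries were at 53.9 and 53.8 CPM (-0.23 ± 0.17 SE, adjusted p = 1, edgeR).

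In the DS the member with the lowest p between genotypes was *Chrna7*, whose receptor is highly permeable to calcium. In heavy fractions it was at 4.45, 3.35 and 2.10 CPM in wild-type and at 9.78, 5.78 and 7.28 CPM in rpS6P-/- mice, without overlap, as was the case for 11.6% of all genes. The log2 fold change was 1.27 ± 0.46 SE with an unadjusted p of 0.00812 and an adjusted p of 0.618 (edgeR), and 0 of 8 members were called, where 0.0440% of all genes were. It was the 1 member with an unadjusted p under 0.05, as 6.42% of all genes had. In DS lysates it was at 7.65, 3.56 and 2.35 CPM in wild-type and at 9.17, 6.64 and 10.8 CPM in rpS6P-/- mice, with 1 wild-type library inside the knockin range (0.94 ± 0.40 SE, unadjusted p = 0.0222, adjusted p = 0.446, edgeR). Leaving out 1 library gave 0.64, without wild-type replicate 3, to 1.57, without wild-type replicate 1, in lysates and 1.02 to 1.53 in heavy fractions. These values rest on 28 to 183 reads a library. There too 0 of 8 members were called, where 0.122% of all genes were, and 1 of 8 had an unadjusted p under 0.05, where 9.07% did. *Chrm1* was higher in each rpS6P-/- DS lysate (151, 145 and 151 CPM) than in each wild-type one (126, 134 and 141 CPM), as groups did not overlap for 13.7% of all genes, but by 0.14 ± 0.11 SE on the log2 scale (adjusted p = 0.77, edgeR).

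Whether genotype acted differently in the 2 regions was tested in heavy fractions. The interaction called 0 of 8 members, where 0.00592% of all genes were called, and 2 of 8 had an unadjusted p under 0.05, where 13.8% of all genes did. They were *Chrna7* (-1.38 ± 0.53 SE, adjusted p = 0.241) and *Ache* (0.66 ± 0.31 SE, adjusted p = 0.34, edgeR). Of the other cholinergic genes tested, 0 were called in any of the 4 comparisons of genotype.

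**Figure D5:**
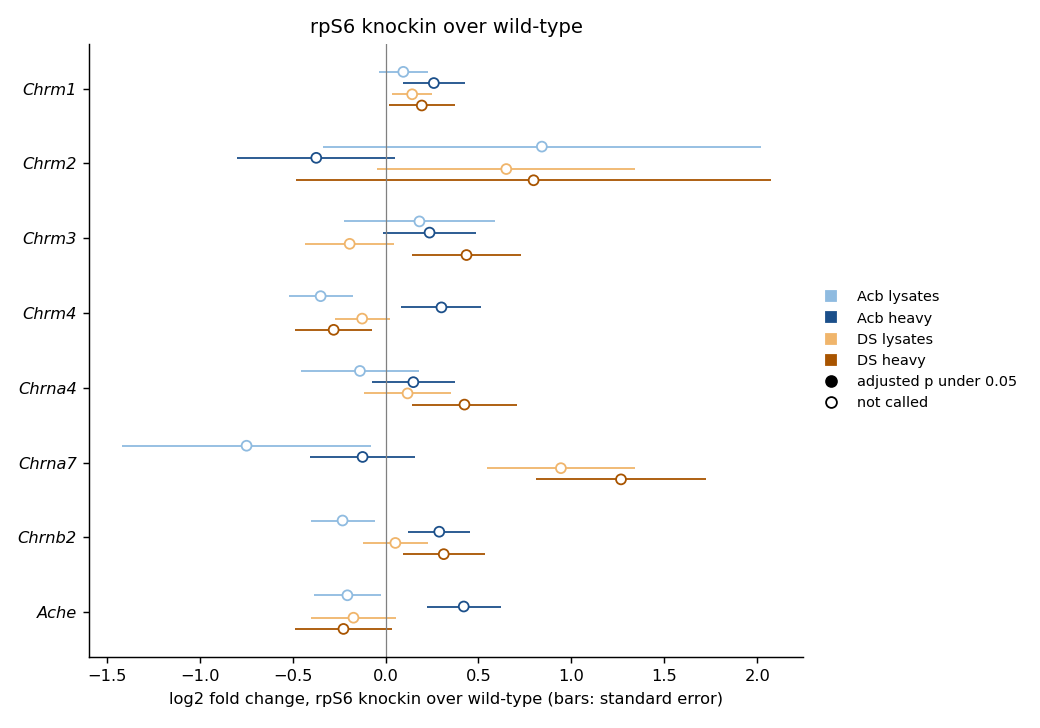
Log2 fold change of rpS6 knockin over wild-type with its standard error for each gene, in lysates (light) and heavy polysomal fractions (dark) of the Acb (blue) and the DS (orange). All points are open; *Chrna7* lies farthest right in the DS, at 0.94 and 1.27, and left of 0 in the Acb.

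The members differed in how their levels varied together over the 24 libraries, which share regions and fractions and so are not independent points. *Chrnb2* and *Ache* varied most alike (Pearson r = 0.89 on log2 CPM), *Chrm3* and *Chrna4* less so (0.66), and *Chrm3* varied against *Ache* (-0.71) and *Chrnb2* (-0.69). *Chrm1* had 0.64 with *Chrnb2* and -0.23 with *Chrm3*. Among 11979 genes with enough reads, the gene most like *Ache* was *Wfs1* (0.95), followed by *Rpn2* and *Tmem130* (0.945 each), and those most like *Chrnb2* were *Gabrg1* (0.937), *Gfra1* (0.935) and *Sparc* (0.93). *Chrm3* was nearest to *Eml5* (0.884), *9430020K01Rik* (0.883) and *Prkab2* (0.877), *Chrm1* to *8430419L09Rik* (0.817), *Calr* (0.809) and *Atp6ap1* (0.80), and *Chrm4* to *Tmem63a* (0.804), *Aatk* (0.778) and *Ece1* (0.776). *Chrna4* was nearest to *Angpt1* (0.763), *Pstpip2* (0.729) and *Me2* (0.72), *Chrna7* to *Sepsecs* (0.761), *Syt14* (0.719) and *Heg1* (0.715), and *Chrm2* to *Tmem245* (0.682), *Jade3* (0.673) and *Lnpep* (0.667).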

How the data were processed

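RNA of whole lysates and heavy polysomal fractions was sequenced from stranded poly-A libraries (50-cycle single-end reads). The authors aligned reads to mm10 (UCSC gene models) with TopHat2 2.0.13 and Bowtie2 2.2.3, discarded reads with over 3 mismatches and counted them per gene with HTSeq 0.6.1p1 (union mode, by strand); the deposited values are raw counts. *Escherichia coli* reads were present before alignment and several runs were merged, per the methods.

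From these, CPM were computed on TMM-scaled library sizes, and per kilobase with GENCODE M21 transcript lengths (21208 of 24079 genes matched). Tests used edgeR 4.0.16 in R 4.3.3 (quasi-likelihood, at least 15 reads summed, Benjamini-Hochberg over all genes, threshold 0.05, log2 with SE); DESeq2 1.42.0 and its size factors, other filters, removal of a trend with transcript length (loess, span 0.5), a replicate block and leaving out libraries were alternatives. Each fit took the libraries of its comparison, with genotype as a covariate where both entered. P-values measure the spread between pooled-tissue libraries. Scripts were tested on simulated counts.

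Members and lists were chosen with earlier results of these data known. Other cholinergic genes were named where called, with the genes most alike per member (Pearson, log2 CPM with prior count 2). Heavy and lysate libraries of a number were taken to come from the same lysate, from their titles. Only the replicate block and the leaving out of lysates used this pairing. The main tests of heavy fractions over lysates treated the libraries as independent. The methods describe an input kept from each sample but do not tie numbered libraries to each other. Deviations of the matched libraries from their group means correlated by -0.0376 to 0.0743 in 12 pairs, so the values do not show the pairing. Sequences are from RefSeq. How many mice entered each pool is given differently in different places and is not stated here.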

Additional observations from a re-analysis of the deposited data

How the results depend on the processing

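Counts of members called changed in the region and heavy over lysate comparisons. By region in lysates, 5 members became 4 with DESeq2's Wald test, a stricter filter or the length trend removed (each time without *Chrm4*), 3 with wild-type libraries alone and 1 (*Ache*) with rpS6P-/- libraries alone, fits with fewer samples. In heavy fractions 3 became 4 with DESeq2's Wald test (*Chrm2*), 2 with wild-type alone (without *Chrm3*) and 4 with rpS6P-/- alone (*Chrna4*). In lysates leaving out 1 library at a time gave 3 to 5, with 3 without DS wild-type replicate 2, and 3 to 4 in heavy fractions. For heavy over lysate in the Acb, 0 became 1 with no filter (*Chrm4*), 2 with a transcript length trend removed (*Chrm1* 0.37, *Chrm4* -0.55) and 2 in wild-type libraries alone; leaving out 1 lysate at a time gave 0 to 2, with 2 (*Chrm4*, *Ache*) without rpS6P-/- replicate 3. In the DS, 0 became 1 with DESeq2 (*Chrm2* -1.30) and 2 with the length trend removed, where *Chrm4* was -0.55 and *Chrm1* turned to 0.33; leaving out gave 0 to 1, with 1 (*Chrm2*) without wild-type replicate 1. All comparisons of genotype and all interactions stayed at 0 members in every alternative run, with a member lacking an adjusted p counted as not called. Leaving out aside, *Chrna7* had an adjusted p in 5 of 6 alternatives for both DS genotype comparisons and for region by genotype. *Chrm2* also had 5 of 6 for region by kind of RNA. The values of *Chrm4* with the length trend removed rest on its coding-only transcript model. The cause of the changed counts was not tested.

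Among the region and heavy over lysate values, and those elsewhere with an unadjusted p under 0.1, these directions turned. By region, *Chrna7* was 0.23 in wild-type lysates alone; in heavy fractions it was 0.018 with the length trend removed, 0.008 with the replicate block, 0.716 in wild-type alone, and -0.214 to 0.148 with 1 library left out, while *Chrm4* was -0.13 in wild-type alone. For heavy over lysate in the Acb, *Chrnb2* was -0.019 with DESeq2's size factors and with its Wald test; in wild-type alone *Chrnb2* was -0.248, *Chrm1* -0.019 and *Chrna7* -0.065, and in rpS6P-/- alone *Chrna4* was 0.055 and *Ache* 0.089. There, leaving out 1 lysate gave -0.189 to 0.015 for *Chrna4*, -0.011 to 0.71 for *Chrna7* and -0.074 to 0.101 for *Chrnb2*.

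*Ache* was called by region in 20 of 20 alternatives in each kind of RNA (log2 fold change 1.01 to 1.64), *Chrnb2* in 19 and 20, and *Chrm3* in 19 of 20 in each; in rpS6P-/- lysates alone *Chrnb2* had an adjusted p of 0.0694 and *Chrm3* of 0.0599, and in wild-type heavy fractions alone *Chrm3* had 0.144. The replicate block changed no call of a member. Over all genes, calls between genotypes in Acb heavy fractions rose from 0 to 1090 with DESeq2, 549 with no filter and 98 with the block. Over the alternatives that left out no library, the counts ranged from 1 to 37 in DS heavy fractions (main 7) and 2 to 95 in DS lysates (19). In Acb lysates they were 0 to 5 (1). For translational efficiency they were 0 to 107 in the Acb (0) and 0 to 6 in the DS (0). They were 35 to 679 for region by kind of RNA (190) and 0 to 479 for region by genotype (1). Leaving out libraries went beyond some of these ranges. Without rpS6P-/- replicate 2 the count was 0 in DS heavy fractions. Without wild-type DS replicate 3 it was 17 for translational efficiency in the DS, and without wild-type DS replicate 2 it was 919 for region by kind of RNA. With 1 genotype alone (wild-type, then rpS6P-/-), the counts of genes called fell to 1975 and 1693 by region in lysates and 1316 and 2997 in heavy fractions. For heavy over lysate they fell to 4158 and 2704 in the Acb and 3797 and 4557 in the DS. Depth limits *Chrm2* and *Chrna7* most.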
